A study of Homo sapiens with 8 samples.

Results

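Eukaryotic initiation factor 2 (eIF2) and the genes of the integrated stress response were followed on 8 one-colour arrays of 2 thyroid cell lines in which the microRNA miR-375 was raised or blocked. The genes were chosen by name, and with earlier results of these data known. EIF2S1, EIF2S2 and EIF2S3 stand for the subunits of eIF2. The others were the eIF2 kinases EIF2AK3 and EIF2AK4, the phosphatase regulator PPP1R15A, the transcription factors ATF4 and DDIT3, and the targets TRIB3 and ASNS. Of these 10 genes, 9 had a probe under their name, with 10 probes in all because EIF2S2 had 2, out of 50599 probes for 36337 gene names. EIF2S3 had no probe under that name and returns only in the promoter search. All 10 probes were well above background on all 8 arrays, so none was lost to a filter on dim signals.

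The ORI arrays carried RNA of Nthy ORI 3.1, an immortalized follicular line of non-tumoral thyroid, transfected with premiR-375, a synthetic precursor of the miRNA, at 5 nM (2 arrays), or with the control named CTL (2 arrays). The TT arrays carried RNA of TT, a line from a medullary carcinoma, the thyroid tumour of calcitonin-secreting C cells, given AntagomiR-375, which blocks the miRNA by antisense pairing, at 20 nM (2 arrays), or its own CTL (2 arrays). By the labels each CTL had the concentration of its line's reagent, 5 nM in ORI and 20 nM in TT. All groups were transfected with a lipid reagent and collected after 48 h. The labels do not name the control molecules, each line stands for its cell type alone, and the methods call the replicates biological without giving their cultures. The study's methods state higher concentrations than the labels and name total RNA where the labels name polyA RNA.

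eIF2 brings the initiator tRNA to the ribosome, and phosphorylation of its alpha subunit, the product of EIF2S1, by stress-sensing kinases lowers general protein synthesis while ATF4 is translated more efficiently. ATF4 then drives genes of amino acid supply, and with DDIT3 (CHOP) it induces PPP1R15A (GADD34), which guides the phosphatase that turns the response off. The response is best known as a reaction of secretory and nutrient-starved cells. Arrays read RNA levels, so neither phosphorylation nor translation was measured.

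The mature sequence of the miRNA that both transfections act on, from RefSeq, lies at chr2:219001648-219001669 on the minus strand of GRCh38.p14, and its seed, bases 2 to 8, is in capitals.
hsa-miR-375-3p: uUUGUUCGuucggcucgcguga
The array has 0 probes named MIR375, so the level of the miRNA itself could not be checked here. The letters CGAACAA, which pair with the seed, are in 0 of the 10 member probes and in 0.0613% of all probes, read on the probe strand only. This says nothing of the remaining transcript.
The 3 probes below cross an exon junction, by their coordinates, and are shown because they define what was measured for an eIF2 subunit, a kinase and the phosphatase regulator. Positions are those of hg19, as in the array files, and span the intron.
EIF2S2 probe A_32_P157965, chr20:32678350-32681481, minus strand: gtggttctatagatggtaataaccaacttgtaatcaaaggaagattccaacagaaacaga
EIF2AK4 probe A_23_P54540, chr15:40326645-40327286, plus strand: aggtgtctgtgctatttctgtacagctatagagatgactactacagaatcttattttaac
PPP1R15A probe A_23_P90172, chr19:49378127-49378901, plus strand: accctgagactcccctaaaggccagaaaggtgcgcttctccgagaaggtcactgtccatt
The EIF2S1 probe lies at chr14:67853161-67853220, plus strand, and begins at base 4092 of its transcript. Each of the other 6 probes likewise reads 60 bases of its transcript, and that of DDIT3 also crosses an exon junction by its coordinates. EIF2S1 had no other probe, so its values describe only transcripts that hold the bases of that probe.

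The C cell markers reported here were far higher in TT than in ORI, where some follicular markers were above background. On the TT arrays the C cell genes CALCA, CHGA, RET and CEACAM5 were well above background on all 4 arrays, with a summed linear signal of 488000 to 543000 in controls against 76.8 to 113 in ORI controls. On the ORI arrays the follicular factors PAX8 and FOXE1 were well above background and NKX2-1 was not, while TG and NKX2-1 were higher on the TT arrays and TSHR was not well above background in either line. The sum of the C cell markers was 109 and 386 on the ORI premiR-375 arrays. There 1 of the 3 CALCA probes and the CHGA probe were well above background on both arrays and on neither ORI control, while the other 2 CALCA probes and CEACAM5 were not. The brighter RET probe was well above background on all 4 ORI arrays, at 6.37 and 5.83 on controls and 6.19 and 5.50 with premiR-375, so it was lower in both pairs. The part of these markers in the ORI results was not tested. The arrays had 32071 to 37340 gene spots well above background, and 0 saturated. The RNA integrity number was 8 for both TT controls and 9 for the other 6 arrays, so in TT it cannot be told apart from treatment, and between control groups it cannot be told apart from line. Each slide held the treated and the control array of 1 replicate number and 1 line.

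Values below are normalized log2 signals, with differences on the same scale. Transfection of premiR-375 into ORI cells was compared with CTL on the same slide. EIF2S1 was 5.25-fold lower with premiR-375, DDIT3 1.84-fold, EIF2AK4 and PPP1R15A 1.59-fold and ATF4 1.42-fold lower, whereas EIF2AK3 was 1.33-fold higher. TRIB3 and ASNS lay near zero difference. Of the 9 genes, 8 were lower in both pairs of arrays and 1 was higher in both, where 33.8% of all probes were lower in both pairs and 37.3% were higher in both. After adjustment 0 of the 10 probes was called by limma at an adjusted p of at most 0.05, as were 0 of all 27724 probes (0%). With an unadjusted p under 0.05 there were 7 of the 10 probes and 26.7% of all probes.

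**Figure D1:**
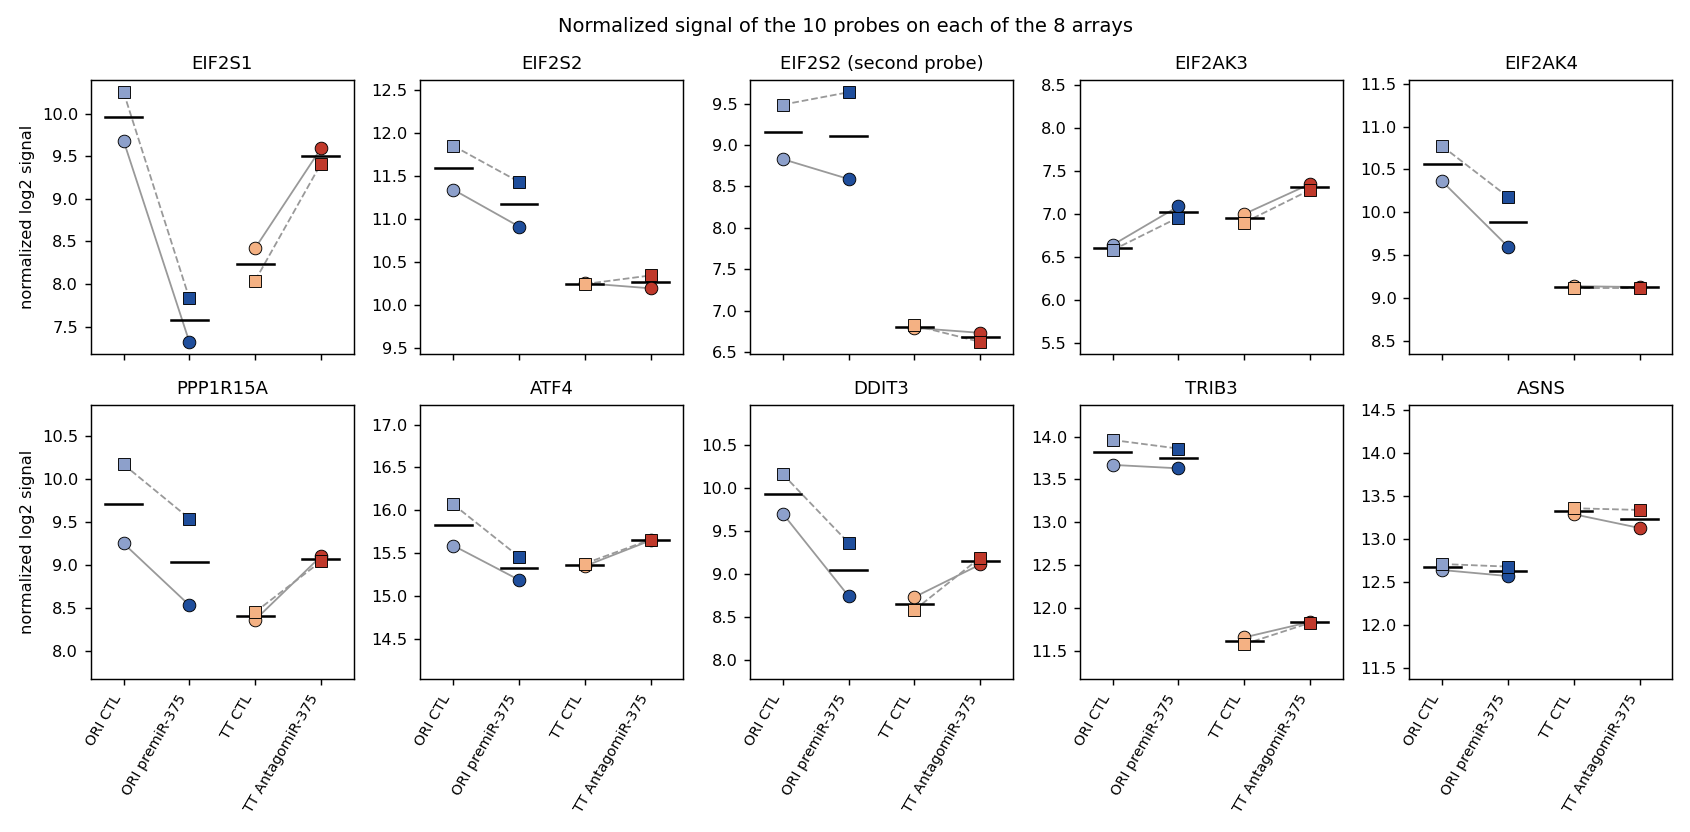
Normalized log2 signal (vertical axes) of the 10 probes on the ORI and TT arrays, 1 panel a probe. Circles are replicate 1 and squares replicate 2, grey lines join the 2 arrays of a slide, and black bars are group means. EIF2S1 reads 9.68 and 10.25 on ORI controls against 7.32 and 7.83 with premiR-375, and stands at 8.42 and 8.04 on TT controls against 9.59 and 9.41 with AntagomiR-375.

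The alpha subunit gene EIF2S1 read 9.68 and 10.25 on the ORI control arrays and 7.32 and 7.83 on the premiR-375 arrays. The groups did not overlap, which held for 17.6% of all probes in this direction, and the pair differences of -2.36 and -2.43 were almost equal. The difference was -2.39 ± 0.12 (SE, 2 pairs, adjusted p = 0.0785), the 92nd lowest of 27724 probes. EIF2S1 is among the genes that the study selected from these same arrays for being lower in ORI and higher in TT. Its direction is therefore not independent evidence. The study took predicted miR-375 targets and required an adjusted p of at most 0.05 by limma in ORI, with its own processing.

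The beta subunit gene EIF2S2, measured by its brighter probe A_32_P157965, read 11.34 and 11.85 on ORI controls and 10.91 and 11.43 with premiR-375. Both pairs were lower although the groups overlapped, with a difference of -0.42 ± 0.11 (SE, adjusted p = 0.152). Its other probe, A_24_P48791, read 8.83 and 9.49 on controls and 8.59 and 9.64 with premiR-375, so the pairs went opposite ways and the difference was -0.04 ± 0.16 (SE, adjusted p = 0.891). The probes of EIF2S2 thus disagreed in ORI.

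Of the kinases, EIF2AK3 (PERK), the sensor of unfolded protein in the endoplasmic reticulum, read 6.64 and 6.58 on ORI controls and 7.09 and 6.96 with premiR-375. It was the only member higher in both ORI pairs, by 0.41 ± 0.12 (SE, adjusted p = 0.158). EIF2AK4 (GCN2), which senses uncharged tRNA, read 10.36 and 10.77 on controls and 9.60 and 10.18 with premiR-375. The groups did not overlap and the difference was -0.67 ± 0.12 (SE, adjusted p = 0.104). The kinases were of opposite sign, each alike in both pairs.

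PPP1R15A read 9.25 and 10.17 on ORI controls and 8.53 and 9.54 with premiR-375. Its replicates lay further apart than its groups, yet on each slide the premiR-375 array was lower, by 0.67 ± 0.12 (SE, adjusted p = 0.0997) on average. ATF4 was the brightest probe in signal, at 15.59 and 16.07 on controls and 15.19 and 15.46 with premiR-375. Here the groups did not overlap, and the difference was -0.50 ± 0.13 (SE, adjusted p = 0.143). DDIT3, which ATF4 induces and which favours cell death under lasting stress, read 9.70 and 10.16 on controls against 8.74 and 9.36 with premiR-375. It had the second largest difference among the members, -0.88 ± 0.12 (SE, adjusted p = 0.0871), with no overlap. TRIB3, a pseudokinase target of ATF4 and DDIT3, read 13.67 and 13.96 against 13.63 and 13.86, and its 95% interval was -0.42 to 0.29. ASNS, asparagine synthetase and a standard target of ATF4, read 12.64 and 12.71 against 12.57 and 12.68, with an interval of -0.40 to 0.30. TRIB3, ASNS, ATF4 and DDIT3 were each lower on both slides. The unadjusted intervals of TRIB3 and ASNS held zero, and those of ATF4 and DDIT3 did not.

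In ORI the calls depended on the processing. With normexp background correction 6 of the 10 probes passed, those of EIF2S1, DDIT3, PPP1R15A, EIF2AK4, ATF4 and the brighter EIF2S2 probe, beside 15.2% of all probes. With the log2 values as deposited 4 passed (12.2% of all), and with the test restricted to probes well above background on every array 4 passed (10.9% of all). EIF2S1, DDIT3, PPP1R15A and EIF2AK4 passed in each of these 3 settings, and in a fit of all 8 arrays EIF2S1 alone passed (1.87% of all). The differences themselves moved little: that of EIF2S1 was -2.43 to -2.05 over the 12 settings and that of DDIT3 -0.96 to -0.76.

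**Figure D2:**
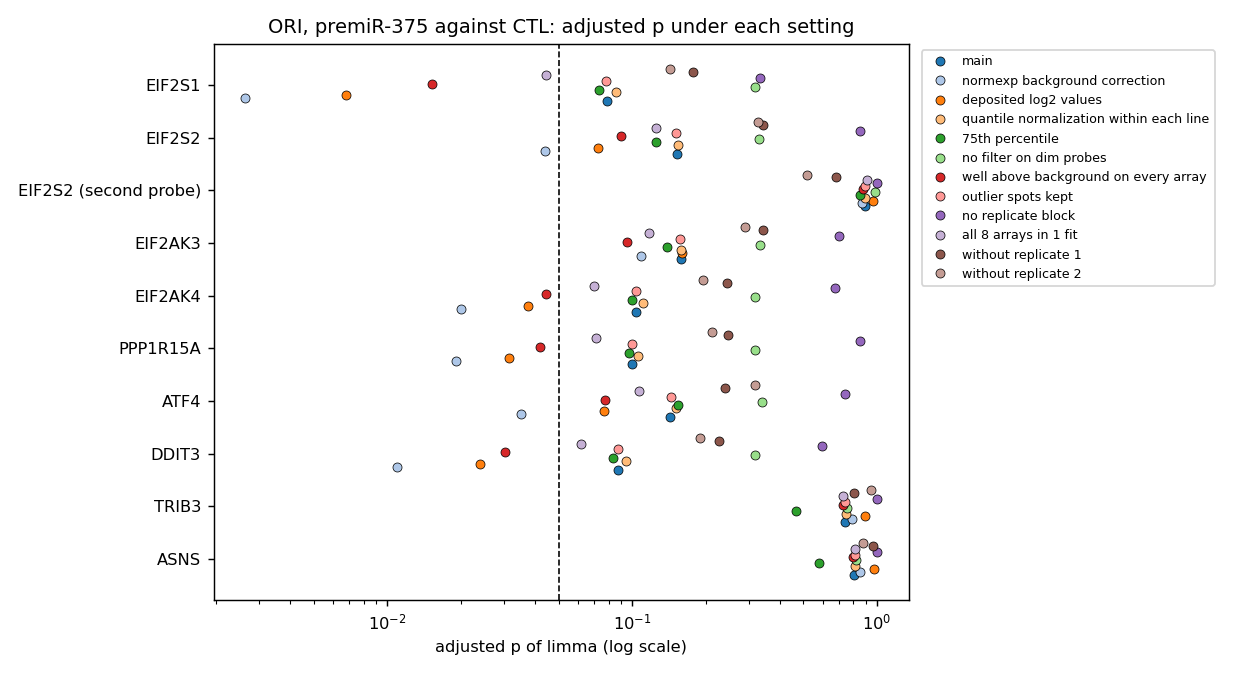
Adjusted p of limma (horizontal axis, log scale) for premiR-375 against CTL in ORI, per probe (rows) and processing setting (colours); "main" is the setting the text reports. The dashed line marks 0.05. EIF2S1 crosses it in 4 of 12 settings, DDIT3, PPP1R15A and EIF2AK4 in 3, and TRIB3, ASNS and EIF2AK3 in 0.

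Blocking miR-375 in TT cells gave differences of the other sign for several of the same genes. With AntagomiR-375, EIF2S1 was 2.41-fold higher, PPP1R15A 1.59-fold, DDIT3 1.41-fold, EIF2AK3 1.29-fold and ATF4 1.23-fold higher than with CTL. Of the 9 genes, 6 were higher in both pairs, where 30% of all probes were, and the same 6 genes did not overlap between groups (21% of all probes in this direction). ASNS and EIF2AK4 were lower in both pairs, by under 0.1 on average. After adjustment 0 of the 10 probes and 0 of 30305 were called by limma (0%), and 4 of the 10 had an unadjusted p under 0.05 beside 13.7% of all probes.

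EIF2S1 read 8.42 and 8.04 on TT controls and 9.59 and 9.41 with AntagomiR-375. Both treated arrays lay above both controls, with a difference of 1.27 ± 0.12 (SE, adjusted p = 0.341), the 176th highest of all. PPP1R15A read 8.36 and 8.45 on controls and 9.10 and 9.04 with AntagomiR-375, a difference of 0.67 ± 0.12 (SE, adjusted p = 0.341). DDIT3 read 8.73 and 8.58 against 9.11 and 9.19, a difference of 0.49 ± 0.13 (SE, adjusted p = 0.352). These 3 genes, which were lower in ORI, were thus higher in TT without overlap.

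ATF4 read 15.35 and 15.38 on TT controls and 15.65 and 15.66 with AntagomiR-375. The means were 15.36 ± 0.02 and 15.66 ± 0.01 (SD, n = 2), and the difference was 0.29 ± 0.11 (SE, adjusted p = 0.391). TRIB3 read 11.66 and 11.58 against 11.84 and 11.83, a difference of 0.21 ± 0.11 (SE, adjusted p = 0.467). Both were higher on each treated array, although their 95% intervals, -0.05 to 0.64 for ATF4 and -0.14 to 0.57 for TRIB3, held zero. EIF2AK3 read 7 and 6.90 against 7.35 and 7.28, so that it was higher in both lines, by 0.37 ± 0.11 (SE, adjusted p = 0.360) here, or 0.22 with the deposited values.

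EIF2AK4 read 9.14 and 9.12 on TT controls and 9.13 and 9.12 with AntagomiR-375, and the 95% interval of its difference was -0.36 to 0.34. EIF2S2 read 10.25 and 10.24 against 10.19 and 10.34 by its brighter probe, and 6.79 and 6.82 against 6.73 and 6.62 by the other. The intervals were -0.36 to 0.40 and -0.49 to 0.25. ASNS read 13.29 and 13.36 against 13.13 and 13.34, with an interval of -0.46 to 0.28. The intervals of these 4 probes held zero as well, so the unadjusted intervals of 6 of the 10 probes held zero. As reported above, no member passed after adjustment in TT with 2 pairs. With normexp correction EIF2S1 alone of the members passed in TT (adjusted p = 0.0356), beside 0.36% of all probes.

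**Figure D3:**
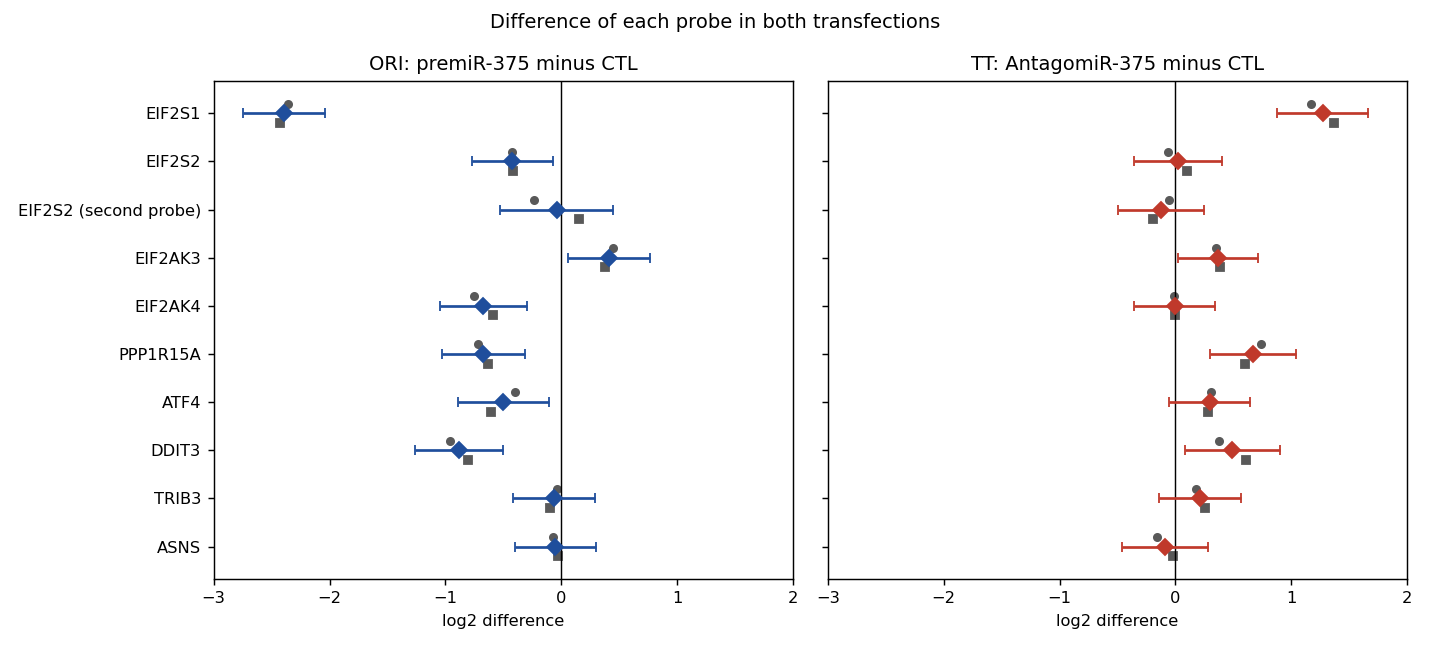
Log2 difference (horizontal axes) of each probe (rows) between treated and control arrays of ORI (left) and TT (right). Diamonds are the mean with its 95% interval from limma, and the grey circle and square are the pairs of replicate 1 and 2. EIF2S1, DDIT3, PPP1R15A and ATF4 lie left of zero in ORI and right of it in TT.

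Taking both lines side by side, EIF2S1, DDIT3, PPP1R15A, ATF4 and TRIB3 were lower in both ORI pairs and higher in both TT pairs, 5 of the 9 genes, while 0 of the 9 showed the opposite. Of 25384 probes tested in both lines 12.1% had the first pattern and 14.6% the second, and of the probes well above background on every array 12.5% had the first. EIF2S1, DDIT3, PPP1R15A and ATF4 did so by at least 0.25 in each line, as 4.36% of all probes did. With scaling to the 75th percentile the TT difference of ATF4 was 0.17, under that limit. The lines share no array, but the transfections differ in reagent, concentration and line, and EIF2S1 was selected by the study for this pattern. The members were also chosen with earlier results of these data known, so these counts are not independent of the data. In a fit of all 8 arrays, the effect in ORI minus the effect in TT was -3.66 ± 0.15 for EIF2S1 (SE, adjusted p = 0.0820), -1.37 ± 0.17 for DDIT3 (adjusted p = 0.0830), -1.34 ± 0.15 for PPP1R15A (adjusted p = 0.0820), -0.80 ± 0.15 for ATF4 (adjusted p = 0.115) and -0.66 ± 0.15 for EIF2AK4 (adjusted p = 0.128). Of the 10 probes, 0 passed, as did 0 of 33130 (0%), and 6 of the 10 had an unadjusted p under 0.05 beside 22.9% of all. With normexp correction these 5 genes passed (10.3% of all probes), with the deposited values EIF2S1, PPP1R15A and DDIT3 passed (8.04%), and with probes well above background on every array those 3 and ATF4 passed (11.7%).

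The other genes of the pathway were read from 8 lists of 60 genes, of which 58 were measured in both lines and SLC7A3 and FGF21 were too dim. In ORI 0 of the 58 genes passed limma's test and 19 had an unadjusted p under 0.05 (26.7% of all probes). In both ORI pairs 36 were lower (33.8% of all) and 16 higher (37.3%), and the median difference was -0.22 against 0.02 over all probes. In TT 0 passed and 12 had an unadjusted p under 0.05 (13.7% of all probes). In both TT pairs 38 were higher (30% of all) and 7 lower (33.8%), and the median was 0.14 against -0.01 over all probes. Lower in both ORI pairs and higher in both TT pairs were 22 of the 58 (37.9%, beside 12.1% of all probes), and 2 had the opposite pattern. These are counts of a chosen list, with no test.

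The transcription factors that pair with ATF4 or share its targets, ATF3, ATF5, CEBPB, CEBPG and NUPR1, were lower in both ORI pairs and higher in both TT pairs in 5 of 5 cases. ATF3, a repressor and activator induced by stress, differed by -0.51 ± 0.11 in ORI (SE, adjusted p = 0.125) and by 2.14 ± 0.16 in TT (SE, adjusted p = 0.341), from a mean of 9.27 to 11.41. Its other 3 probes gave 2.16, 0.80 and -0.02 in TT and -0.49, -0.42 and 0.07 in ORI, so 1 of the 4 probes did not show it. CEBPB, a C/EBP factor that binds DNA with ATF4, differed by -0.75 ± 0.16 in ORI and by 0.56 ± 0.12 in TT. Named after their values were seen, ATF5 differed by -0.45 and 0.42, CEBPG by -0.75 and 0.14 and NUPR1 by -0.05 and 0.50 in ORI and TT.

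Among the 8 measured amino acid transporters, 5 were lower in both ORI pairs and 7 higher in both TT pairs. SLC7A11, the cystine importer, differed by -0.67 ± 0.18 in ORI and by 1.06 ± 0.13 in TT (SE, adjusted p = 0.341), and SLC1A4, a neutral amino acid carrier, was higher by 0.75 in ORI, against the list. Of the 12 cytosolic aminoacyl-tRNA synthetases, which charge tRNAs, 9 were lower in both ORI pairs with a median of -0.37, YARS1 the most at -0.98 ± 0.13 (SE, adjusted p = 0.0864), while in TT the median was 0.03 and the same gene stood highest at 0.35. In amino acid synthesis 5 of 10 genes were higher and 4 lower in both ORI pairs. Within that list PSAT1, of serine synthesis, differed by -1.26 ± 0.12 in ORI (SE, adjusted p = 0.0785), with -1.34 by a further probe. In TT its probes gave 0.10 and 0.80, and PSPH, of the same route, led the list with 0.57.

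The remaining outputs of ATF4 split, 5 of 9 lower and 4 higher in both ORI pairs. VEGFA, the angiogenic factor, had the largest ORI difference of this list, -1.32 ± 0.13 (SE, adjusted p = 0.0785), with -0.10 in TT. Its other probe gave -0.96 in ORI and 0.28 in TT, so the probes were of opposite sign in TT. SESN2, an inhibitor of nutrient signalling, led the list in TT with 0.51 and was also higher in both ORI pairs, by 0.65 on average. The eIF2B subunits, which reload eIF2 with GTP, were close to zero in both lines, with ranges of -0.31 (EIF2B1) to 0.16 in ORI and -0.05 to 0.20 (EIF2B2) in TT. Among the other kinases and their regulators, IMPACT, an inhibitor of GCN2 activation, differed by -0.46 in ORI and by -0.26 in TT. Of the other phosphatase subunits PPP1R15B, the constitutive counterpart of PPP1R15A, differed by -0.27 in ORI. PPP1CC differed by -0.31 in TT, with 0.08 by its other probe.

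**Figure D4:**
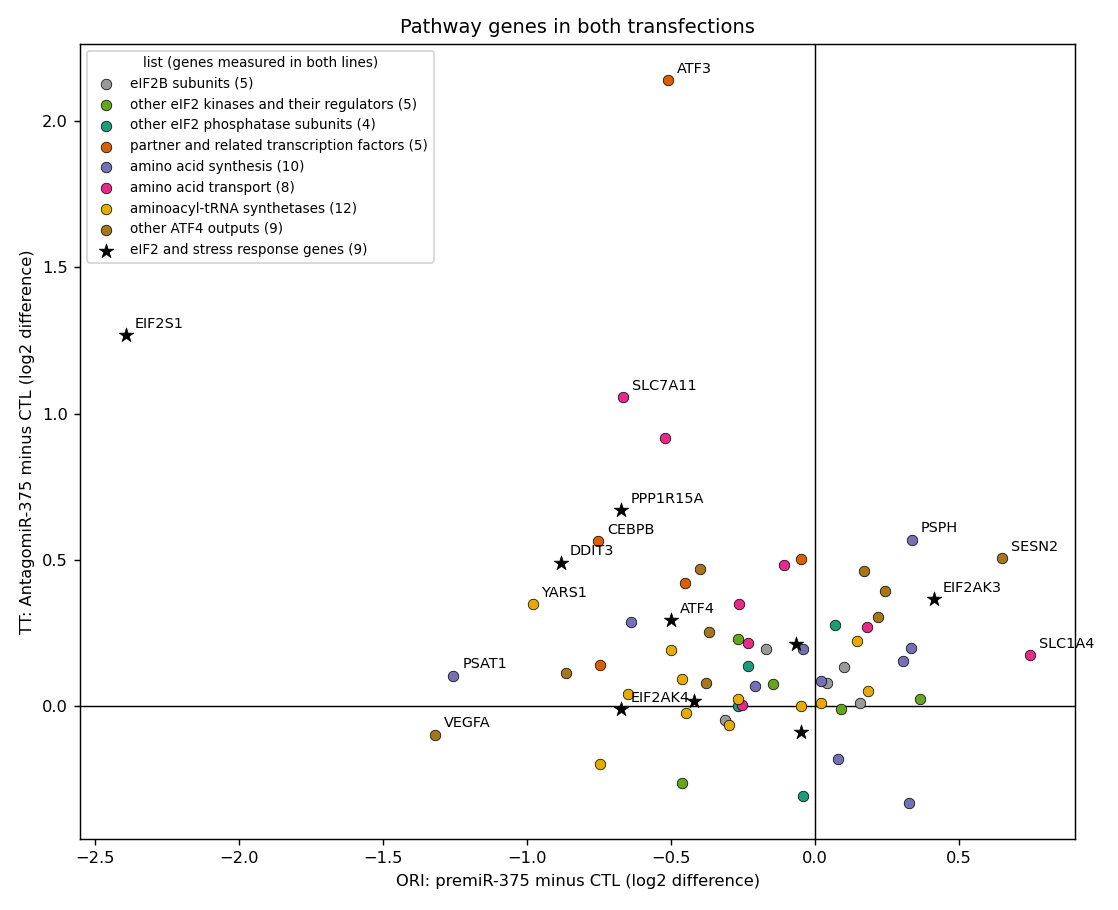
Log2 difference with premiR-375 in ORI (horizontal axis) against that with AntagomiR-375 in TT (vertical axis). Each point is a gene, coloured by its list, and stars are the 9 genes described first. The upper left field holds genes lower in ORI and higher in TT, among them EIF2S1, ATF3, SLC7A11, PPP1R15A, CEBPB and DDIT3.

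Of the difference between both effects, ATF3 had the largest in the lists at -2.65 (adjusted p = 0.0820), and the largest of their own lists were SLC7A11 at -1.72, PSAT1 at -1.36, YARS1 at -1.33 and VEGFA at -1.22. EIF2AK2 led its list with -0.50, and EIF2B2 and PPP1CA theirs with -0.37 each. With no list gene past the threshold of limma, 18 of the 58 had an unadjusted p under 0.05, beside 22.9% of all probes.

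The genes whose pattern over the 8 arrays was most like EIF2S1, with each probe centred on its line mean, were NF1 (r = 0.993), RNF215 (r = 0.992), SLC2A1 (r = 0.990), NF2 (r = 0.988) and IFRD2 (r = 0.988) of 22190 probes ranked. They differed by -1.66 (RNF215) to -0.37 (NF2) in ORI. Among the members the values of r to EIF2S1 were 0.949 for DDIT3, 0.911 for ATF4, 0.801 for EIF2AK4, 0.786 for PPP1R15A and 0.695 for the brighter EIF2S2 probe, against 0.609 for TRIB3, 0.160 for the other EIF2S2 probe, 0.0404 for ASNS and -0.346 for EIF2AK3. The arrays share slides in pairs, and these r are descriptions.

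The control arrays show the same genes in both lines with control transfections only. By PCR the study found miR-375 only in TT among the thyroid lines it screened, which included the line of the ORI arrays. These arrays do not measure it, and its part in the differences between lines was not tested. Comparing TT controls with ORI controls, 8 of the 10 probes passed the adjusted p of limma, beside 45.5% of all 31074 probes. Of these, 7 probes were lower in TT (22.8% of all probes were called lower) and 1, of ASNS, was higher (22.7%). Without overlap, 7 of the 9 genes were lower (38.2% of all probes) and 2 were higher (36.7%). TRIB3 was 4.57-fold lower in TT, EIF2S1 3.34-fold, EIF2AK4 2.70-fold, PPP1R15A 2.47-fold and DDIT3 2.42-fold lower, and ASNS was 1.57-fold higher.

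TRIB3 stood at 13.67 and 13.96 in ORI and 11.66 and 11.58 in TT, with a difference of -2.19 ± 0.21 (SE, adjusted p = 0.00239). EIF2S2 was lower by both probes, by -2.35 ± 0.29 (SE, adjusted p = 0.00499) for A_24_P48791 and -1.35 ± 0.25 (SE, adjusted p = 0.0157) for A_32_P157965. EIF2S1 differed by -1.74 ± 0.30 (SE, adjusted p = 0.0126), EIF2AK4 by -1.43 ± 0.23 (SE, adjusted p = 0.0104), DDIT3 by -1.27 ± 0.24 (SE, adjusted p = 0.0171) and PPP1R15A by -1.30 ± 0.37 (SE, adjusted p = 0.0484). The ORI controls lay above the TT controls without overlap for each of these genes. ASNS was higher in TT by 0.65 ± 0.18 (SE, adjusted p = 0.0475), ATF4 differed by -0.47 ± 0.24 (SE, adjusted p = 0.193) and EIF2AK3 by 0.34 ± 0.18 (SE, adjusted p = 0.202), or 0.21 with normexp correction. The control groups were thus apart in eIF2 subunits, GCN2, GADD34, CHOP and TRIB3, while ATF4 and PERK did not pass the test. Control concentration, 5 nM in ORI and 20 nM in TT, and slide also differed between these groups and cannot be told apart from line.

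Most of these calls were lost on leaving out either TT control, where the ORI pair alone sets the residual spread. Without TT control replicate 1 or 2, 2 of the 10 probes passed, TRIB3 and A_24_P48791 of EIF2S2 (19.1% and 20.4% of all probes), with EIF2S1 at an adjusted p of 0.0507 and 0.0760. The call of ASNS was lost on leaving out each of the 4 control arrays in turn and with scaling to the 75th percentile, and that of PPP1R15A was lost without a filter on dim probes. Without ORI control replicate 2 the difference of PPP1R15A was -0.84 and that of ATF4 -0.23, and without ORI control replicate 1 that of ATF4 was -0.71 (adjusted p = 0.0492). Direction held for all 10 probes in the 11 settings run.

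**Figure D5:**
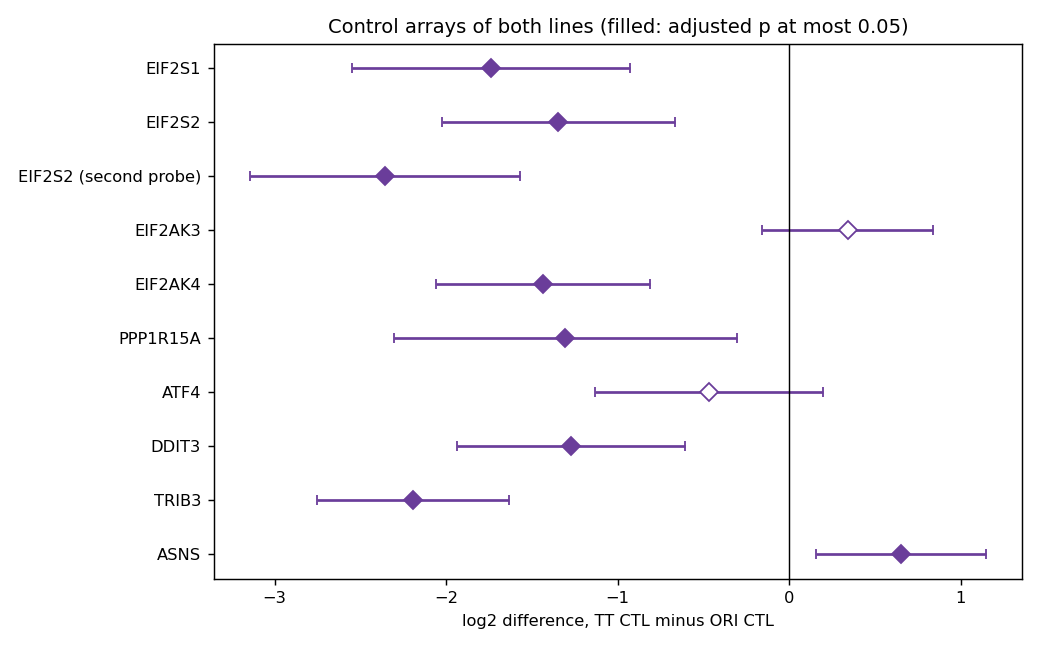
Log2 difference between the TT and ORI control arrays (horizontal axis) for each probe (rows), with its 95% interval from limma; filled diamonds have an adjusted p of at most 0.05. TRIB3 and both EIF2S2 probes lie left of zero, with ASNS and EIF2AK3 on the right.

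Of the 58 list genes, 29 passed in this comparison, 25 of them lower and 4 higher in TT, or 50% beside 45.5% of all probes. In amino acid synthesis the largest gap was that of PHGDH, the first enzyme of serine synthesis, at -5.07 ± 0.20. CTH, of cysteine synthesis, came next at -4.97 ± 0.22. Of the 10 genes in this list 5 were called, all lower, where 22.8% of all probes were called lower. Of the synthetases 7 of 12 were called lower (22.8% of all probes), by their brightest probes AARS1 the most at -1.88, then IARS1 at -1.44, for which a further probe gave -2.01. SLC7A5, the large neutral amino acid transporter, differed by -2.96 and SLC7A1, the cationic one, by -1.70. The secreted factors went apart, STC2 at -4.74 and GDF15 at 2.38, as did the transcription regulators CEBPB at -3.28 and NUPR1 at 4.99. EIF2AK2 (PKR), the kinase that senses double-stranded RNA, differed by -1.86, GCN1, the partner of GCN2, differed by -1.13, EIF2B1 by -0.91 and PPP1CB, not called, by -0.81, with 0.01 by its other probe.

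A core of the C/EBP-ATF response element, the composite site that ATF4 binds with C/EBP partners, was searched as TGATGNAA on both strands from 250 bases before to 50 after each gene start in the RefSeq promoters of GRCh38.p14. It was in 3.62% of 35116 promoters, or 4.46% of 27305 genes. Of the 9 members with a promoter sequence, EIF2S3 included and EIF2S2 absent, only ASNS held it. Of 48 list genes with a promoter 17 held it (35.4%), 7 of 10 synthetases, 4 of 7 transporters, 2 of 4 partner factors and 0 of 6 genes of amino acid synthesis. The matches below, in capitals, are shown because they set the member with a match beside list genes with larger ORI differences of either sign.
ASNS, chr7:97872458-97872487, minus strand: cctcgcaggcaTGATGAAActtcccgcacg
CEBPG, chr19:33374060-33374089, plus strand: cgcgcggcgtcTGATGCAAcctgccggcaa
SLC1A4, chr2:64989381-64989410, plus strand: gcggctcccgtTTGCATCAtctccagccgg
ATF3, chr1:212565205-212565234, plus strand: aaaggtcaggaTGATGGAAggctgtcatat
CARS1, chr11:3057407-3057436, minus strand: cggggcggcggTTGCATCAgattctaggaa
NARS1, chr18:57621804-57621833, minus strand: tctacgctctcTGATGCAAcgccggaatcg
Each is written on the strand of its gene, where the match begins at -68 (ASNS), -42 (CEBPG), -7 (SLC1A4), -191 (ATF3), -2 (CARS1) and 14 (NARS1) from the gene start. In ORI these genes, in the same order, differed by -0.05, -0.75, 0.75, -0.51, -0.50 and -0.46 and in TT by -0.09, 0.14, 0.17, 2.14, 0.19 and 0.09. CHAC1 and MARS1, not shown, also held a match and differed by 0.22 and 0.15 in ORI by their brightest probes. The other probe of CHAC1 gave -1.10, of opposite sign, and that of MARS1 gave 0.02. The MARS1 pairs, at -0.001 and 0.30 by the brightest probe, differed in sign. The 7 synthetases with a match had ORI differences of -0.50 to 0.15 and the 3 without had -0.65 to 0.19, so the ranges overlapped. A match of letters is a description and not a binding site. A missing match says nothing of bases outside the window searched or of variants of the core.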

How the data were processed

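For each of the 8 arrays the authors deposited Feature Extraction 10.10.1.1 output, in which the processed, mean and background intensity of each spot is not normalized between arrays. They also deposited a table of log2 values, which is not comparable between lines because its arrays share a distribution within a line only; per the labels, limma was used. From the processed intensity, log2 values were taken without control and outlier spots, the spots of each probe were averaged, and quantile normalization was applied over the 8 arrays. Probes well above background on at least 2 arrays of a fit were kept. limma 3.58.1 (lmFit, eBayes; R 4.3.3) was fitted to each line with slide as a block, to the 4 control arrays without a block, and to all 8 arrays with slide as a block for the difference of effects, with Benjamini-Hochberg adjustment over all probes kept. A call is an adjusted p of at most 0.05. Intervals are 95%.

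Members and lists were chosen with earlier results of these data known. The probe with the highest mean stood for a gene. All members are named, and per list and comparison up to 2 genes of the largest size among those called or, with none called, the 1 of the largest size. Of the list genes, 13 were found through an older symbol. The precision is limited by having 2 arrays a group, for which the smallest p of an exact two-sided permutation test is 0.333. If replicates were not separate cultures, p-values measure technical spread only. Deviations of arrays of equal number correlated across 22190 probes with r = 0.803 in ORI and 0.347 in TT. Steps were tested on simulated data with reduced noise, where only the sign of placed differences was required. This does not show error rates at the noise of these arrays. Alternatives were normexp (offset 50), deposited log2 values, quantile normalization within each line, the 75th percentile, other filters, outlier spots kept, no block, fits of all 8 arrays, and leaving out arrays. A further cell type marker is not reported here.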

Additional observations from a re-analysis of the deposited data

How the results depend on the processing

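Probes called for premiR-375 in ORI, 0 as reported, were 4216 with normexp (6 member probes, 13 list genes), 3376 with deposited log2 values (4 and 9), 2632 with probes well above background on every array (4 and 8) and 621 with all 8 arrays in 1 fit (1 and 2). For AntagomiR-375 in TT, normexp gave 109 (1 and 2). For the difference of both effects, normexp gave 3407 (5 and 13), deposited values 2665 (3 and 8) and probes on every array 2598 (4 and 10). Leaving out a pair gave 0 calls in ORI, TT and the difference. Leaving out a control array gave 5209 to 14593 probes called between lines, with 2 to 8 members and 12 to 34 list genes. The fit with no replicate block called 0 probes in ORI, TT and the difference, where 2407, 3301 and 3764 had an unadjusted p under 0.05, against 7416, 4146 and 7580 with the block. The prior degrees of freedom of limma were 2.20 in ORI as reported, 4.20 with normexp and 3.26 with probes on every array.

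Of the member differences in ORI under alternatives, 3 of 110 changed sign: A_24_P48791 of EIF2S2 (0.011 with deposited values, -0.24 to 0.16 leaving out a pair) and TRIB3 (0.025 with deposited values). In TT 3 of 110 did: EIF2AK4 (0.022 with normexp, 0.012 with deposited values) and A_32_P157965 of EIF2S2 (-0.064 to 0.10 leaving out a pair). In the difference of effects 2 of 120 did, A_24_P48791 of EIF2S2 (-0.11 to 0.28) and ASNS (-0.030 to 0.11), both leaving out a pair. Between control groups 0 of 100 did, 16 lost their call and 1 gained it, ATF4 without ORI control replicate 1 (adjusted p = 0.0492). The cause of these shifts was not tested. The deposited values and normalization within a line were not run between lines, where their values are not comparable. Flagging of outlying samples needs more than 2 arrays a group.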
